A study of Arabidopsis thaliana with 6 samples.

Results

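Transcript levels in floral buds of the mutant line atyak1-2 were compared with those in wild-type buds of Arabidopsis thaliana. The comparison was defined by the array titles and took in 4 of the 6 arrays of the series, that is 2 of atyak1-2 and 2 of the wild type, with replicate 1 and replicate 2 of each genotype described apart. The other 2 arrays are of a second mutant allele, atyak1-1, and served to estimate the spread between arrays and to set the alleles side by side. All plants were of ecotype Col-0, were 42 days old and had grown in periods of 12 L and 12 D, light and dark. RNA was taken from buds of all sizes up to stage 13 on the primary inflorescence, so that every array mixed sporophytic bud tissue with developing and nearly mature pollen. The titles call the replicates biological, but the labels give neither the number of plants behind a replicate nor the lesion of atyak1-2, and atyak1-2 is 1 line. The deposited values are MAS5 signals, a brightness per probe set on a linear scale, from Affymetrix ATH1 arrays.

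AtYAK1 is a protein kinase of the DYRK family, whose members are related to the Yak1 kinase of budding yeast, a brake on growth that acts in nutrient signalling. The title of the series names the male gametophyte, the pollen, as the subject. A pollen grain matures inside the anther, where the tapetum feeds it and supplies its outer wall. The vegetative cell of the grain then makes a store of transcripts for the pollen tube, among them those for pectin-modifying enzymes and their inhibitors, sugar transporters, the actin cytoskeleton and receptor kinases of the growing tip.

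Median signals lay between 213 and 223 on the 6 arrays. The actin control probe sets, whose 3′ to 5′ signal ratio rises as RNA is degraded, gave 1.91 and 1.58 on the wild-type arrays against 1.68 and 1.53 on those of atyak1-2. Of 22746 probe sets that are not controls, 15164 were tested, those whose geometric mean over the 6 arrays was 73.6 or more, and 8306 of these carry the name of 1 gene. AtYAK1 has no probe set under its name in the probe table, so its own transcript was not analysed here and it could not serve as a check of the genotype labels. Floral organ identity genes, which would mark the tissue, were represented by UFO alone, at signals between 4.72 and 48.6. On the first principal component, which held 60.2% of the variance, the wild-type arrays lay at -43.8 and -43.2 and the atyak1-2 arrays at 8.98 and 28.2, replicate 2 being the farther one.

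Of the transcripts that passed the test, far more were lower than higher in atyak1-2 buds. In limma's moderated test with Benjamini-Hochberg adjustment over all probe sets tested, 146 of 15164 passed an adjusted p of 0.05, which is 0.963%. Of these, 131 (0.864%) were lower in atyak1-2 and 15 (0.0989%) were higher. The probe sets called lower had a median signal of 793 and 750 on the wild-type arrays and of 132 and 122 on the atyak1-2 arrays. Those called higher had a median of 295 and 215 in the wild type and of 1005 and 847 in atyak1-2. Both sets of arrays lay apart for every called probe set. This is a weak criterion with 2 arrays a group: over all probe sets tested, 15.5% had both atyak1-2 arrays below both wild-type arrays and 31.4%, the larger share, had both above.

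The falls were also the larger changes. For the probe sets that fell the median log2 fold change was -2.40, and for those that rose it was 1.43, against 0.09 for all probe sets tested. Among the 131, 122 fell at least 2-fold, 80 at least 4-fold, 51 at least 8-fold and 23 at least 16-fold. Among the 15, 10 rose at least 2-fold, 6 at least 4-fold and 3 at least 8-fold. The transcripts called lower made up 1.19% and 1.14% of the summed signal on the wild-type arrays and 0.320% and 0.303% on the atyak1-2 arrays. For 39 of the 131, both atyak1-2 signals were below 73.6, the level required of a tested probe set's mean, and the size of such a fall is uncertain. For 3 of the 15 the same holds of both wild-type signals. In a bulk sample of buds, fewer cells of a type and less RNA per cell cannot be told apart.

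**Figure D1:**
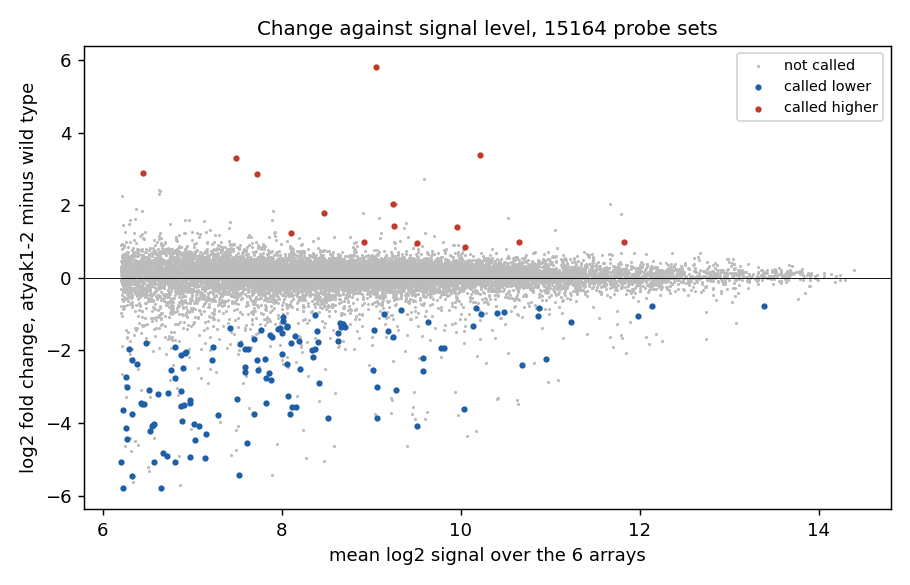
Log2 fold change of atyak1-2 minus wild type (vertical axis) against the mean log2 signal over the 6 arrays (horizontal axis), 1 point for each of 15164 probe sets. The 131 called lower (blue) lie mostly far below 0 and the 15 called higher (red) above it, while the median of all probe sets is 0.09.

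The number of calls depends on the wild-type arrays. Without wild-type replicate 1 no probe set passed in limma, although 1376 had an unadjusted p under 0.05, and without wild-type replicate 2 only 2 passed. Without atyak1-2 replicate 1 the count was 27 and without atyak1-2 replicate 2 it was 14, while without atyak1-1 replicate 1 or replicate 2 it was 361 or 356. When the replicate number entered the model as a block, the count was 599, made up of 132 rises and 467 falls, and it included all 146. None of the 43 genes named below as having passed did so with either wild-type array left out. Each of them passed with either atyak1-1 array left out.

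Seen apart, both replicates showed the same asymmetry, and replicate 2 the larger falls. The difference of atyak1-2 replicate 1 from wild-type replicate 1 was at least a 2-fold fall for 432 probe sets (2.85%) and at least a 2-fold rise for 165 (1.09%). In replicate 2 these numbers were 569 (3.75%) and 170 (1.12%). A difference within 1 replicate has no test of its own. Of the falls, 339 probe sets were at least 2-fold lower in both replicates, which is 78.5% of the replicate 1 list and 59.6% of the replicate 2 list. Of the rises, 45 were at least 2-fold higher in both, 27.3% and 26.5% of the lists. No probe set was 2-fold lower in one replicate and 2-fold higher in the other.

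Falls outnumbered rises at larger folds too. At least 4-fold falls numbered 150 in replicate 1 (0.989%), 228 in replicate 2 (1.5%) and 137 in both, and at least 4-fold rises 19 (0.125%), 14 (0.0923%) and 6. For 8-fold changes the counts were 85, 125 and 78 for falls, and 5, 4 and 3 for rises. Most falls seen in 1 replicate only were smaller falls in the other: of 230 probe sets 2-fold lower in replicate 2 alone, 202 were also lower in replicate 1, by a median of -0.55 for all 230. Of the 93 that were 2-fold lower in replicate 1 alone, 76 were lower in replicate 2. Of the 339 shared falls 119 were called and of the 45 shared rises 10 were called.

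**Figure D2:**
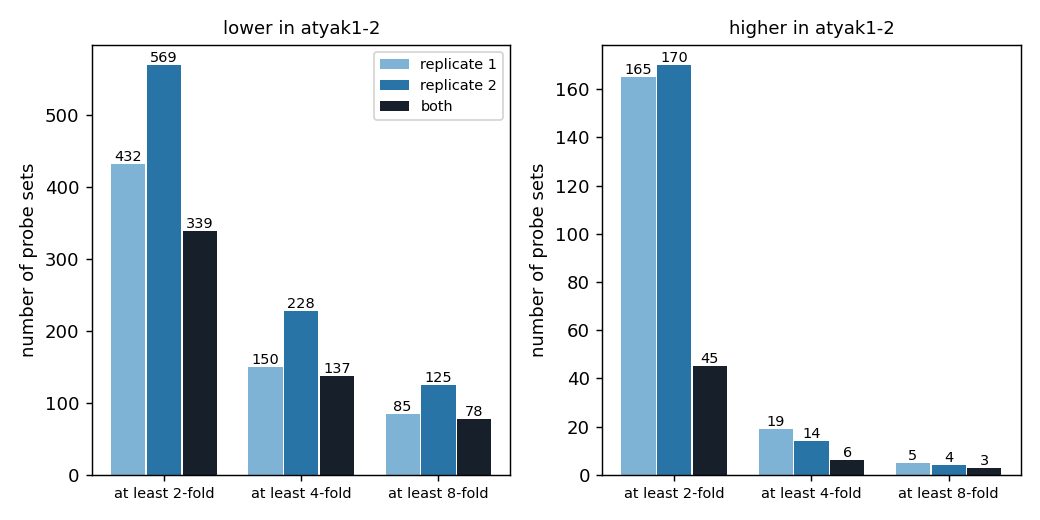
Number of probe sets (vertical axes, starting at 0) at least 2-, 4- and 8-fold lower (left) or higher (right) in atyak1-2 in replicate 1, in replicate 2 and in both, of 15164 tested. At 4-fold, 137 falls and 6 rises were common to both replicates.

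Probe set by probe set, the differences of replicate 1 and replicate 2 had a Pearson correlation of 0.73 and a Spearman correlation of 0.40 over 15164 probe sets, and a Pearson correlation of 0.64 over the 15018 that were not called. These are descriptions across probe sets, which are not independent and share the arrays. The differences spread over an SD of 0.53 in replicate 1 and 0.62 in replicate 2. Among the 131 called lower, the median difference was -2.18 in replicate 1 and -2.48 in replicate 2, which leaves a median of 22.0% and 17.9% of the wild-type level. The fall was the larger in replicate 2 for 95 of the 131. The 15 called higher had median differences of 1.55 and 1.36, and 7 of them changed more in replicate 2. As both replicates entered the test, neither is a separate check on it.

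**Figure D3:**
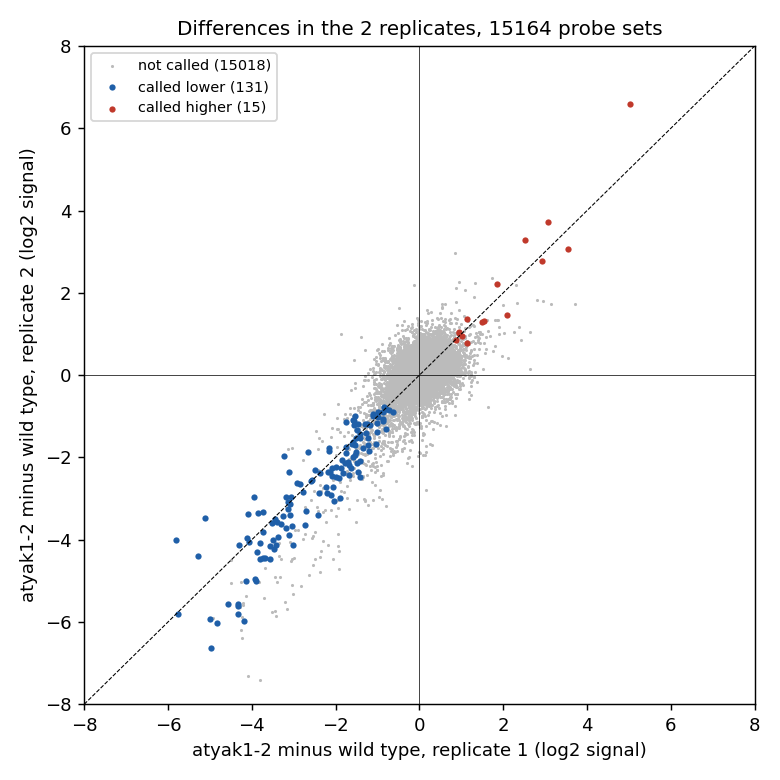
Log2 difference between atyak1-2 and wild type in replicate 1 (horizontal axis) and in replicate 2 (vertical axis), 1 point for each of 15164 probe sets, with the line of equal change dashed. The called probe sets (131 lower in blue, 15 higher in red) lie along this line, and 95 of the 131 changed more in replicate 2 than in replicate 1.

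Named genes are given here by what they are known to do. Values after ± are standard errors of the fit with 2 arrays against 2, and each adjusted p is limma's over all 15164 probe sets. Of the 8306 named probe sets tested 76 passed, or 0.915%, with 67 lower (0.807%) and 9 higher (0.108%). These shares are the background for each count of calls by family below. On the log2(signal + 32) scale, which lowers the weight of dim signals, the fold changes of 10 of the 43 named genes were over 1.5 times smaller. On that scale the difference was -4.71 for SWEET9, -4.16 for RALFL25, -4.23 for PLIM2a, -3.68 for SWEET14, -3.34 for GH9A4 and -2.78 for AT4G39110. It was -4.21 for AT5G07420, -4.28 for AT5G48140, -3.11 for AT2G13350 and 4.98 for AT1G12010.

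Some genes of families tied to pectin, the gel of the plant cell wall, fell. AT1G10770 belongs to the family of inhibitors of invertase and pectin methylesterase. Which of these enzymes a member of the family acts on was not tested, and invertase does not act on pectin. AT1G10770 is therefore given here by its family only. AT1G10770 gave 5208 and 5260.3 in the wild type and 389.9 and 241 in atyak1-2, a log2 fold change of -4.09 ± 0.51 (adjusted p = 0.026). AT1G70720, of the same family, had signals of 1290 and 1310.3 in the wild type and of 159 and 75.1 in atyak1-2 (-3.57 ± 0.37, adjusted p = 0.014). For both genes the mutant arrays were far below the wild-type arrays, and replicate 2 of atyak1-2 was the lower one.

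Single genes for enzymes of pectin turnover fell as well. AT3G43270, which encodes a pectin methylesterase, went from 667 and 743 to 189.8 and 142 (-2.10 ± 0.21, adjusted p = 0.011). AT5G48900, a pectate lyase gene, went from 1982 and 2136 to 527 and 375 (-2.21 ± 0.28, adjusted p = 0.027). Relative to the wild type, both fell less than AT1G10770 and AT1G70720. The next genes of these families were picked out after their values were seen, because the probe table names them by locus code alone. AT4G02250, another gene of the inhibitor family, fell from 2785 and 2826 to 97.7 and 43.7 (-5.42 ± 0.86, adjusted p = 0.048). AT5G07420, a pectin methylesterase gene, fell from 1165 and 1756 to 58.3 and 37.1 (-4.94 ± 0.47, adjusted p = 0.011). AT5G48140, of the polygalacturonase type that cuts pectin, had -4.97 ± 0.74 (adjusted p = 0.039), with -5.82 without atyak1-2 replicate 1 and -4.12 without atyak1-2 replicate 2. AT2G23900, of the same type, had -3.36, and the pectin methylesterase gene AT2G26450 had -3.20. The smallest of these falls was that of the pectate lyase gene AT5G55720, from 1726 and 1944 to 875 and 964, which is 1.99-fold (adjusted p = 0.031). These genes therefore differed widely in how much signal was left, with AT4G02250 the lowest and AT5G55720 the highest in atyak1-2 relative to the wild type.

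Other cell wall genes were examined by family. GH9A4, a glycosyl hydrolase of the endoglucanase type, had signals of 901 and 660 in the wild type and of 69.4 and 30.1 in atyak1-2 (-4.08 ± 0.51, adjusted p = 0.024). It was the 1 gene called of 20 tested glycosyl hydrolase genes, whose median log2 fold change was -0.08. Without atyak1-2 replicate 1 it had -4.68 and without replicate 2 it had -3.47. Expansins loosen the cell wall. None of the 12 tested genes matched by name as expansins or extensins passed. EXPB5 came nearest, at 372 and 337 in the wild type against 55.8 and 23.4 in atyak1-2 (-3.29 ± 0.59, adjusted p = 0.074, and 0.0034 with the replicate block). Of the 3 genes whose names mark them as pectin methylesterases, none passed, and they lay between 0.065 and 0.27. AT5G11420 and, chosen after its value was seen, AT4G32460 encode cell wall proteins of the DUF642 type and fell by 1.94 and 1.22 on the log2 scale.

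Of 14 tested sugar transport genes 3 passed, all lower, where 0.807% of all named probe sets tested passed as lower. SWEET proteins let sugars pass through membranes, and SWEET9 is known as the sucrose exporter of the floral nectary. SWEET9 gave 1867 and 1289 in the wild type and 34.2 and 23.0 in atyak1-2 (-5.79 ± 0.45, adjusted p = 0.0052). Almost no signal was left in either replicate, with differences of -5.77 and -5.81. SWEET14 went from 1070.1 and 885.6 to 71.2 and 27.5 (-4.46 ± 0.44, adjusted p = 0.011), and it had -5.14 and -3.77 without atyak1-2 replicate 1 and replicate 2. SWEET13 went from 882 and 1159.5 to 205 and 153 (-2.52 ± 0.32, adjusted p = 0.026). SWEET13 and SWEET14 are known as sucrose transporters that act together in anthers.

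AtVEX1, a SWEET gene known from the vegetative cell of pollen, differed as much but had a larger standard error. Its signals were 1420.3 and 2613 in the wild type and 109 and 60.8 in atyak1-2 (-4.57 ± 0.92). On the atyak1-1 arrays, which enter this error, they were 287 and 32.5. AtVEX1 did not pass (adjusted p = 0.105, 0.012 with the replicate block and 0.0021 in a model of the 2 groups alone). SWEET4 had -1.29 ± 0.45 (adjusted p = 0.34, and 0.048 with the block). Of the 14 tested genes of this family 10 had lower means in atyak1-2, with a median of -0.26 and a highest value of 0.32. Among all 8187 named genes tested, 5328 had higher means, and the median was 0.099.

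Of 22 tested cytoskeleton genes 5 passed, all lower, where 0.807% of all named probe sets tested passed as lower. As the name patterns of the families were corrected after the matched names were seen, families are not ranked here. PLIM2a encodes a LIM protein that bundles actin filaments in pollen, and it had signals of 1409 and 1267 in the wild type and of 58.9 and 26.8 in atyak1-2 (-5.07 ± 0.38, adjusted p = 0.0049). Its relative PLIM2b went from 735 and 759.8 to 213 and 173 (-1.96 ± 0.31, adjusted p = 0.048). The actin gene ACT12, active in late pollen, went from 353 and 516 to 124 and 142 (-1.69 ± 0.23, adjusted p = 0.030). The remaining calls were XIE, a myosin that carries cargo along actin (-1.38 ± 0.21, adjusted p = 0.044), and SP1L4, of the SPIRAL1 family of microtubule-binding proteins (-2.26 ± 0.28, adjusted p = 0.022). No tubulin gene passed: TUA1, an alpha-tubulin known from pollen, had -0.94 ± 0.19 (adjusted p = 0.105, and 0.027 with the block) and TUB9 had -0.53 ± 0.13. The median of the 22 genes was -0.30, and 19 of them had lower means, where 5328 of all 8187 named genes tested had higher means.

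Among genes for signalling, RALFL25 encodes a RALF-like peptide, a class of secreted peptides read by receptor kinases at the cell wall. Its signals were 1132 and 794 in the wild type and 35.2 and 13.1 in atyak1-2 (-5.47 ± 0.52, adjusted p = 0.011), with -6.18 and -4.75 without atyak1-2 replicate 1 and replicate 2. The other 9 tested peptide genes of the RALF-like and CLE families did not pass and lay between -0.15 and 0.34. AT3G61160, which encodes a kinase of the shaggy (GSK3) type, went from 1488 and 1119 to 173 and 106 (-3.25 ± 0.31, adjusted p = 0.011). SGP2, a small GTP-binding protein, went from 737 and 828 to 97.9 and 134 (-2.77 ± 0.32, adjusted p = 0.019).

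Further strong falls came from genes for metabolism and from genes whose role is not given here. AT4G24380 had 3295 and 3597 in the wild type and 297 and 192 in atyak1-2 (-3.85 ± 0.24, adjusted p = 0.0025). AT4G19430 had 2405 and 2623 against 274 and 312 (-3.10 ± 0.18, adjusted p = 0.0025). These 2 genes had the smallest adjusted p of the 15 lowest genes among those with a mean signal above 216. AT1G54020, a lipase of the GDSL type, was almost the same in both replicates, at 2467 and 2466 in the wild type and 412 and 413 in atyak1-2 (-2.58 ± 0.26, adjusted p = 0.012). UGT85A3, a glycosyltransferase, was the 1 call among 24 tested genes of its kind and went from 502 and 474 to 59.3 and 54.2 (-3.10 ± 0.28, adjusted p = 0.0093). The glutathione transferase gene GSTU20 fell from 2957 and 2737 to 1641 and 1588 (-0.82 ± 0.13, adjusted p = 0.049), the 1 call among 6 tested. AT5G15140, of the aldose epimerase type, went from 793 and 774 to 177 and 217. AT2G27180 and 4CL8, named for its likeness to 4-coumarate CoA ligases, completed these 15 genes with -2.80 and -1.75. Of the probe sets with no gene name, 259282_at and 249678_at fell the most, with log2 fold changes of -5.80 and -4.90.

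**Figure D4:**
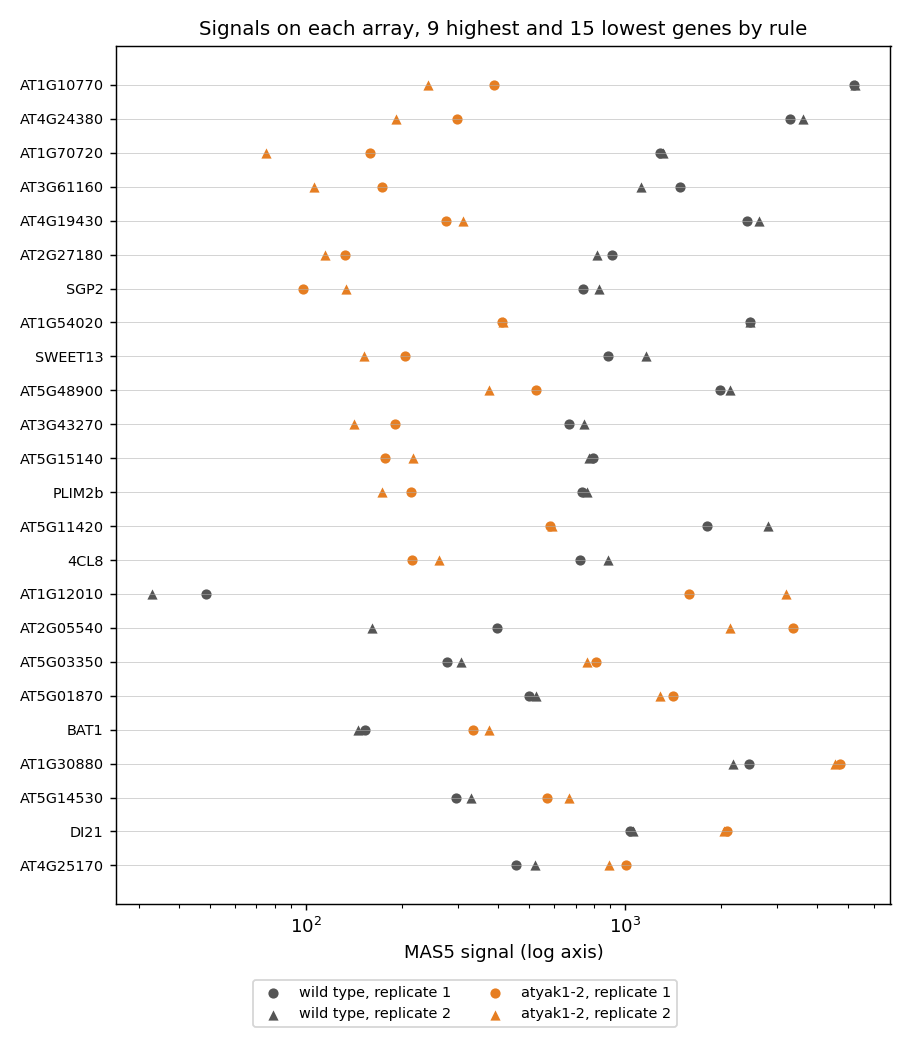
MAS5 signal (horizontal log axis) on each of the 4 arrays for the 15 lowest and 9 highest named genes that passed and had a mean signal above 216, with wild type in grey and atyak1-2 in orange, replicate 1 as circles and replicate 2 as triangles. For each gene the atyak1-2 arrays lie on one side of both wild-type arrays, from AT1G10770 at 5208 and 5260.3 against 389.9 and 241 to AT1G12010 at 48.7 and 32.9 against 1590 and 3180.4.

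Only 9 named genes rose, and they came from different kinds of genes. AT1G12010 encodes an ACC oxidase, the enzyme that makes ethylene from its precursor. It gave 48.7 and 32.9 in the wild type and 1590 and 3180.4 in atyak1-2, with differences of 5.03 in replicate 1 and 6.59 in replicate 2 (5.81 ± 0.39, adjusted p = 0.0028). As the wild-type signals were near background, the size is uncertain. The other tested gene of the ethylene list, the transcription factor gene EIN3, had 0.031 ± 0.13. AT2G05540, a glycine-rich protein, went from 398 and 162 to 3355 and 2127 (3.40 ± 0.47, adjusted p = 0.033). The wild-type arrays decide the size of this rise, with 4.04 without wild-type replicate 1 and 2.75 without wild-type replicate 2.

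The other named rises were of about 2- to 3-fold and alike in both replicates. AT5G03350, a lectin of the legume type, had 277 and 307 in the wild type and 811 and 762 in atyak1-2 (1.43 ± 0.14, adjusted p = 0.011). AT5G01870, of the lipid transfer protein type, had 501 and 525 against 1416 and 1288 (1.40 ± 0.13, adjusted p = 0.011). BAT1, an acyltransferase that acts on brassinosteroid hormones, had 153 and 145 against 333 and 374 (1.24 ± 0.16, adjusted p = 0.029). AT1G30880, AT5G14530, which encodes a WD-repeat protein, the drought-induced gene DI21 and AT4G25170 rose by log2 fold changes of 1.00, 0.99, 0.98 and 0.95. Of the probe sets without a gene name, 265983_at went from 37.3 and 47.1 to 439 and 393 (3.31 ± 0.26, adjusted p = 0.0052), and 246279_at had 2.90 ± 0.38.

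The lists chosen for the tissue include one of late pollen genes, which holds 4 of the 131 falls. Of the 57 genes of late pollen and pollen tubes on the list, 18 have a named probe set, and 17 of these had lower means in atyak1-2, with both arrays below both wild-type arrays for 15. Without a signal filter, both arrays lay below for 16.2% of 22746 probe sets, and 39.1% of 13286 named genes had lower means. The median log2 fold change of the 18 was -1.91, against 0.10 for 13286 named genes in the same unfiltered fit, with -1.74 in replicate 1 and -2.03 in replicate 2 alone. In that fit 5 of the 18 passed, where 0.774% of all probe sets passed as lower. They were PLIM2a, PLIM2b and ACT12, given above, and 2 genes known only by locus code in the probe table. The list was drawn up with earlier results of these data known, so it is no independent evidence of the direction.

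The list holds 8 genes with a named probe set for receptor kinases and leucine-rich repeat extensins, which act at the pollen tube tip. In the unfiltered fit 2 of them passed, where 0.774% of all probe sets passed as lower. AT4G39110, entered in the list as the receptor kinase BUPS1, had 458 and 393 in the wild type and 44.2 and 25.6 in atyak1-2 (-3.65 ± 0.49, adjusted p = 0.029). AT3G19020, entered as the leucine-rich repeat extensin LRX8, lay under the signal filter and is not among the 43 genes counted as passed. Its signals were 228 and 111 in the wild type and 1.72 and 6.44 in atyak1-2 (-5.58 ± 0.87, adjusted p = 0.042 without the filter). The mutant signals of both genes were at the low end of the scale, where fold changes are uncertain. The receptor kinase genes ANX2 and ANX1, which keep the tube from bursting, had -3.99 ± 0.77 and -3.54 ± 0.89 in the unfiltered fit, where neither passed (adjusted p = 0.086 and 0.17). The other four of these genes did not pass there either. AT2G21480, listed as BUPS2, had -1.63 (adjusted p = 0.42), AT1G49490, listed as LRX9, had -2.20 (0.32), AT4G33970, listed as LRX11, had -3.07 (0.37) and AT2G15880, listed as LRX10, had -0.74 (0.76), with overlapping arrays for the last.

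The pollen MADS-box genes did not pass, and their values ranged widely. AGL104 had 169 and 284 in the wild type and 70.5 and 74.5 in atyak1-2 (-1.60 ± 0.33, adjusted p = 0.109, and 0.033 with the replicate block). AGL66 had 144 and 215 against 68.6 and 33.8 (-1.87 ± 0.49, adjusted p = 0.19). For AGL30 the value was -0.63 ± 0.32 and for AGL65 -0.016 ± 0.30, the latter 0.042 after quantile normalization. AGL94, under the filter, had 0.068 ± 0.61 in the unfiltered fit, with overlapping arrays. It was the 1 gene of the 18 on the late pollen list with a higher mean. ACT11, an actin gene of pollen and other reproductive tissue, had -0.34 ± 0.15. MGH3, which encodes the histone H3 of sperm and was the only sperm gene with a named probe set, had 158 and 276 in the wild type and 21.4 and 39.3 in atyak1-2 (-2.85 ± 0.47), and it missed the threshold without the filter (adjusted p = 0.052).

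No tested gene of the lists for earlier anther stages passed. All 6 listed tapetum and pollen wall genes had higher means in atyak1-2, with a median of 0.22, but none passed and the arrays of the groups overlapped for each. Higher means were also found for 5328 of all 8187 named genes tested, whose median was 0.099. AMS, a transcription factor that directs tapetum development, had 586 and 912 in the wild type and 715 and 995 in atyak1-2 (0.21 ± 0.33). SWEET8, which supports the pollen wall, had 775 and 1624 against 1341 and 1460 (0.32 ± 0.32), SHT, of pollen coat phenolics, had 0.23 ± 0.50, AT1G06170 had 0.26 ± 0.26, and AT5G07230, listed as A9, had 0.065 ± 0.35. In this list the 2 wild-type arrays differed more than the groups did: the summed signal was 4950 and 9858 in the wild type and 6805 and 9335 in atyak1-2. Without wild-type replicate 1, SWEET8, AMS, SHT and AT5G07230 had values below 0. The 1 tested meiosis gene of 6 with a named probe set had 0.48, and EMS1, a receptor kinase of the early anther, had 0.31 ± 0.21. All 3 tested early anther genes had higher means, while ROXY2 of that list, under the filter, had -0.18 ± 0.49 in the unfiltered fit. The carpel genes ALC and SPT had 0.71 ± 0.21 and 0.25 ± 0.18 (adjusted p = 0.24 and 0.60). INO, the other tested gene of the carpel and ovule list, had -0.16 ± 0.40, with overlapping arrays.

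**Figure D5:**
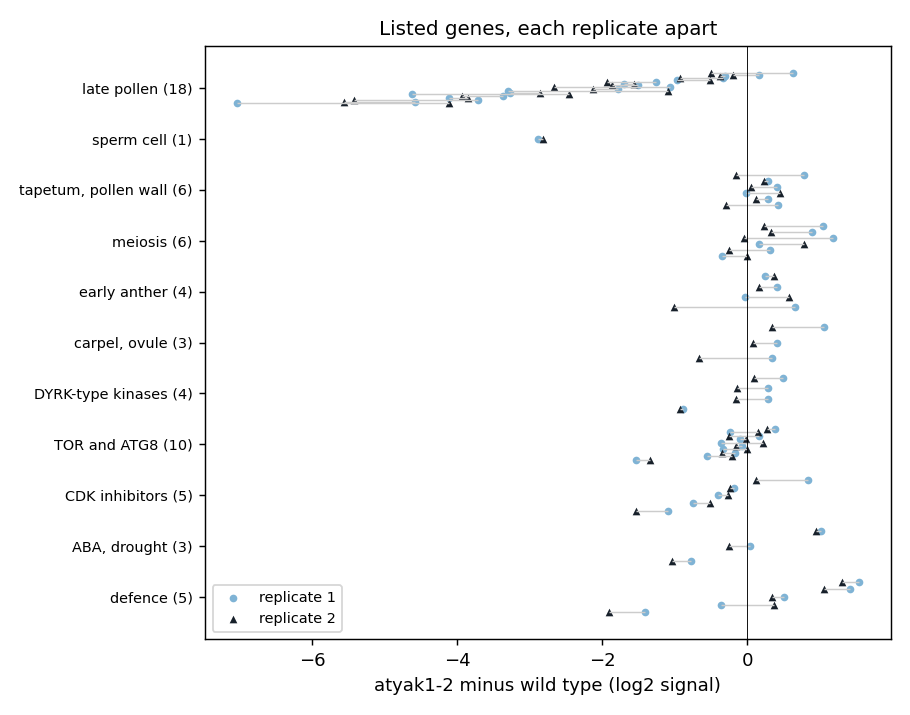
Log2 difference between atyak1-2 and wild type (horizontal axis) for each listed gene with a named probe set, in replicate 1 (circles) and replicate 2 (triangles) joined by a line, by gene list with its number of genes. The late pollen genes reach below -5 and 17 of 18 have a mean below 0, while the 6 tapetum genes lie around their median of 0.22.

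Most but not all of the late pollen markers were lower in atyak1-2, as AGL65 had -0.016 and AGL94 0.068. The summed signal of the 18 late pollen genes was 7130 and 7777 in the wild type and 1837 and 1519 in atyak1-2. Of the wild-type sums, AtVEX1 made up 1420.3 and 2613 and PLIM2a 1409 and 1267. PLIM2a, AT4G39110, ANX2 and ANX1 were each below 60 on both atyak1-2 arrays, whereas PLIM2b had 213 and 173, ACT12 124 and 142 and ACT11 757 and 656 there. None of the 18 was at 0. What part a lower share of pollen has in the other falls was not tested.

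Lists for pathways tied to kinases of this kind held no gene that passed. Of 10 tested genes of the TOR pathway and of ATG8, the ubiquitin-like proteins of autophagy, 9 had lower means and none passed, with a median of -0.09. Among all 8187 named genes tested, 5328 had higher means, and the median was 0.099. ATG8H had 383 and 394 in the wild type and 132 and 155 in atyak1-2 (-1.44 ± 0.28, adjusted p = 0.098, and 0.023 with the replicate block), while ATG8B had 0.33 ± 0.17. Of 5 tested inhibitors of cyclin-dependent kinases 4 had lower means, and none passed. The lowest, AT5G02420, listed as SMR3, had 285 and 245 against 134 and 84.4 (-1.31 ± 0.47, adjusted p = 0.34). The 3 tested kinases related to AtYAK1 had a median of 0.08, with AT3G17750 the highest at 0.30, and AT2G40120, under the filter, had -0.91 ± 0.33. None of these 4 kinase genes passed.

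Of 3 tested drought genes 1 passed, where 0.915% of all named probe sets tested passed. DI21 rose (0.98 ± 0.14, adjusted p = 0.034), and COR47, a dehydrin, had 5778 and 4996 in the wild type and 3377 and 2428 in atyak1-2 (-0.91 ± 0.32, adjusted p = 0.33, and 0.025 with the block). The thionin genes, which encode small antimicrobial proteins, did not pass. THI2.2 had 380.1 and 576 against 1020.3 and 1197 (1.24 ± 0.22, adjusted p = 0.074, and 0.0034 with the block). THI2.1 had 9626 and 9131 against 3636 and 2439 (-1.65 ± 0.73, adjusted p = 0.42, and 0.0082 in a model of the 2 groups alone). The atyak1-1 signals of THI2.1, which enter its standard error, were 4047 and 665. RCA, Rubisco activase of green tissue, had 0.035 ± 0.15 and was -0.020 after quantile normalization. Among 11 tested genes for histones and chromatin remodellers 10 had higher means, with a median of 0.26, and none passed. For comparison, 5328 of 8187 named genes tested had higher means.

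Called genes lay on all chromosomes. Of the named probe sets tested, 0.690% passed on chromosome 1, 1.01% on chromosome 2, 0.891% on chromosome 3, 1.08% on chromosome 4 and 1.02% on chromosome 5. A single pair of called genes, SWEET13 and a gene known by locus code, lay within 3 genes of each other. The 3 tested genes with a name near AtYAK1 lay between 0.0071 and 0.16 in the unfiltered fit, and none passed.

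The alleles were also set against each other. In limma 0 of 15164 probe sets passed the test of atyak1-2 minus atyak1-1, where 151 had an unadjusted p under 0.05 and the lowest adjusted p was 0.054. With the replicate block 2 passed and without atyak1-1 replicate 1 it was 6. Of the 146 probe sets called in atyak1-2, 13 had an unadjusted p under 0.05 in this test. Both alleles were compared with the same wild-type arrays, so their values against it are not independent. The 131 probe sets called lower had a median of -2.42 in atyak1-1 and the 15 called higher one of 1.46. The alleles had the same sign for each of the 146, atyak1-1 lying between the wild type and atyak1-2 for 75 and beyond atyak1-2 for 71. The median absolute log2 difference between the alleles was 0.21 and the largest 1.75.

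Some genes differed more between the alleles than most, without passing when all arrays were used. AT2G13350, chosen after its value was seen, had 572 and 545 in the wild type, 40.9 and 32.1 in atyak1-2 and 91.7 and 71.2 in atyak1-1. It fell by 3.95 ± 0.26 on the log2 scale in atyak1-2 (adjusted p = 0.0025) and had -2.79 in atyak1-1, a difference of -1.16 ± 0.26. The reverse held for AT2G26450, with -3.20 in atyak1-2 and -4.27 in atyak1-1. Among named genes with a mean signal above 216 and with the arrays of the alleles apart, the highest differences of atyak1-2 minus atyak1-1 were DELTA-VPE, a vacuolar processing enzyme, with 2.30 ± 1.12, AT4G12890 with 1.38 ± 0.41 and AT5G49180 with 0.97 ± 0.43. DELTA-VPE had 463 and 360 in atyak1-2 and 343 and 20.1 in atyak1-1. Its difference was 0.25 without atyak1-1 replicate 2, the low array (adjusted p = 0.999), and 4.35 without atyak1-1 replicate 1 (adjusted p = 0.012). The lowest of the same genes were AT3G23770, AT1G71180 and AT5G07860, with -0.85 ± 0.27, -0.73 ± 0.17 and -0.72 ± 0.20. None of these 6 passed in atyak1-2 against the wild type, where they lay between -0.39 and 0.56.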

How the data were processed

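The authors deposited, for 22810 probe sets, the signal that the MAS5 algorithm computes, an intensity with a linear scale. The submitters' processing notes name GCOS and MAS5 and give no version. The 2% trimmed mean was 500.04 on every array in the deposited intensity values, which shows that each had been scaled to the same level. Detection calls were not used. Signals were taken to log2 without further normalization. The 64 control probe sets were left out, and so was the third of the others with the lowest mean. A model with 1 mean for each genotype was fitted to the 6 arrays together (limma 3.58.1, R 4.3.3) with a variance trend, which gave 3 residual and 3.84 prior degrees of freedom, and the Benjamini-Hochberg adjustment ran over 15164 probe sets with a threshold of 0.05. The number of arrays limits the precision. Figures came from matplotlib 3.10.9 (Python 3.11.15).

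The probe table gave 13513 probe sets 1 gene, 503 several and 8794 none, and 13436 matched a current gene record. Of the named probe sets tested, 85.7% carry a locus code alone, and 71 of 275 genes in the 19 lists had a named probe set. The lists for dehiscence and jasmonate, seed storage and roots had none, and that for pollen coat had 1 tested gene, with a log2 fold change of 0.035.

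Genes named were the 15 highest and 15 lowest called with arrays apart and a mean above the median (216), up to 5 members of each list and 3 of each of 9 families by smallest p, and the 3 highest and 3 lowest allele differences. For several probe sets of a gene, the brightest stands for it. Other named genes were chosen after their values were seen. The comparison and the lists were chosen with earlier results of these data known, and the family name patterns were corrected after the matched names were seen.

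Same-numbered arrays deviated together, with correlations of 0.35 (wild type and atyak1-2), 0.25 (wild type and atyak1-1) and 0.61 (the alleles). A pairing of arrays by replicate number therefore rests on the titles and these correlations alone. The main model had no term for it, so the main calls, standard errors and adjusted p treat the arrays as unpaired. The replicate block, which models the pairing, was fitted as an alternative and is given where it changes a result. With it 599 probe sets passed, against 146 in the main model. Alternatives were other signal filters, log2(signal + 32), median centring, quantile normalization, no trend, weights for arrays, the block, a model of the 2 groups alone, a further criterion of 2-fold and the loss of each array. Tested on simulated data for 15164 probe sets, the fit recovered 32% of 50 probe sets changed by 1 log2 unit and 84%, 92% and 98% of those changed by 2, 3 and 4, with 5 false calls. The simulated arrays varied independently of each other, whereas same-numbered arrays here deviated together. These rates may therefore not hold for the real data.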

Additional observations from a re-analysis of the deposited data

How the results depend on the processing

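All 43 genes named as passed kept their direction under every alternative, and all 43 kept their call with no filter, log2(signal + 32), array weights, a model of the 2 groups alone, the replicate block and without either atyak1-1 array. Calls were lost for 8 of 28 genes tested under the stricter filter (PLIM2b, XIE, GSTU20, AT4G32460, AT2G05540, DI21, AT5G14530 and AT4G25170), for these and for AT1G30880, AT4G02250, AT5G48140 and AT5G55720 without the trend, for AT4G25170 and AT5G14530 after quantile normalization, for AT5G14530 and GSTU20 after median centring, and for all 43 without either wild-type array. Without atyak1-2 replicate 1 or 2, 11 or 6 kept their call.

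The count of 146 was 50 (5 higher, 45 lower) under the stricter filter, 359 (31 and 328) in a model of the 2 groups alone and 599 (132 and 467) with the replicate number as a block. The rises alone were 9 without the trend and 24 with array weights. Of the 146, 143 remained after quantile normalization and after centring, 135 with no filter and 104 without the trend, and 132 changed at least 2-fold. With each array left out in turn the counts ran from 0 to 361, from 0 to 36 for rises and from 0 to 325 for falls. For the allele difference the count was 0, with 2 under the block and from 0 to 6 with arrays left out. Late pollen calls numbered 4, with 0 under the stricter filter and from 0 to 5 with arrays left out.

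With the replicate block 6 late pollen genes passed. Under the stricter filter PLIM2b lost its call, while PLIM2a, ACT12 and AT4G39110 were no longer tested. Some genes that did not pass in the fit to all 6 arrays passed in the model of the 2 groups alone. Their adjusted p in limma was 0.0021 for AtVEX1, 0.0082 for THI2.1, 0.011 for EXPB5, 0.013 for ATG8H and 0.022 for the expansin gene EXPA8. It was 0.041 for SWEET4 and 0.047 for THI2.2 and TUA1. Of the genes that did not pass, 7 changed sign. With each array left out in turn, the values ran from -0.11 to 0.53 for AMS, from -0.44 to 0.57 for AT5G07230, from -0.35 to 0.82 for SHT, from -0.22 to 0.85 for SWEET8, from -0.17 to 0.24 for RCA, from -0.26 to 0.23 for AGL65 and from -0.056 to 0.12 for EIN3. The lower ends of the first 5 came without wild-type replicate 1. After quantile normalization AGL65 had 0.042 and RCA -0.020. The cause was not tested. With 2 arrays a group, leaving one out leaves a lone array that is assumed to vary like the other groups, and dim signals limit the size of the strongest falls.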
